A study of Homo sapiens with 8 samples.

Results

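The 46 genes described here encode parts of the RNA polymerase I machinery and factors that assemble ribosomes. They were taken as the rows of the deposited count tables whose symbol was on a list of 46 such genes, and all 46 were found among the 23710 gene symbols of those tables. RNA was sequenced from the human lymphoblastoid cell line NA12043, a line of B cells that grow in culture after infection with Epstein-Barr virus, kept in RPMI medium. The 4 groups were control cells with no chromium, cells exposed to 5 µM hexavalent chromium (Cr(VI)) for 24 h, and cells 3 days and 7 days post treatment, each with 2 libraries that the labels call biological replicates. The labels count the days post treatment, while the series text sets its time points after exposure began, and which start the day numbers use is not settled here. All 8 libraries came from this single line, and the later groups have no untreated cells of the same day beside them, so time in culture and earlier exposure cannot be told apart. Libraries are named here by group and replicate number, as control 1 or 24 h 2.

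Ribosome production starts in the nucleolus, where RNA polymerase I, with the initiation factors UBTF, SL1 and RRN3, copies the ribosomal DNA into a long precursor rRNA. Small nucleolar ribonucleoproteins (snoRNPs) then guide methylation and pseudouridylation of that precursor, and separate sets of factors fold, cut and export the small and large subunits. Dividing B cells and cells driven by MYC are known for large nucleoli and high expression of these genes. The RNA was selected with poly-T beads, so the values below are mRNA levels of the factors, and rRNA itself was not measured.

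The 8 libraries held 9478459 to 11110830 reads counted in genes, and all 46 members were among the 12536 genes that passed the filter on low counts. Replicate 1 of both later groups stood apart from the other 6 libraries before any test: reads under no feature made up 39.4% (3 days 1) and 36.5% (7 days 1) of those 2 tables and 44.4% to 51.5% of the others, reads with an ambiguous gene 1.05% and 1.12% against 0.608% to 0.781%, and the 20 most counted genes took 12.5% of gene counts in both against 8.88% to 9.65%. Levels are given as CPM, the read count of a gene scaled to a common library size with TMM, a correction for a few genes taking a large share of the reads. Of 12 B cell markers, 11 reached 10 CPM in at least 1 library, and the count was 0 of the 10 for T and NK cells, 1 of the 9 for myeloid cells and 0 of the 9 for stromal or epithelial cells. The summed B cell markers came to 2760 and 3153 CPM in the control libraries, 2660 and 3288 at 24 h, 2350 and 2956 at 3 days and 2295 and 2818 at 7 days (lower library first). The T and NK cell sum stayed between 1.30 and 3.39 CPM in all 8 libraries, with 4 of its 10 markers at 0 throughout. In bulk cultures, fewer cells with a transcript and less of it per cell cannot be told apart.

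The start-site sequences of the members are shown before their values, and a shared regulator was not tested. RefSeq windows (GRCh38.p14, 250 bases before to 50 bases after an annotated start) existed for 38 members, and the E-box CACGTG, which MYC with MAX can bind and which reads the same on both strands, was searched in them. It was present for 16 of the 38 (42.1%), against 32 of 114 (28.1%) other genes of the pathway, 12.6% of 9025 tested genes outside the list and 8.77% of all 27305 genes with a window. Counted by window, 17 of 47 (36.2%) member windows held it, against 7.26% of all 35116. In the 80 bases upstream of the start that are printed below, capitals mark the match. NOP10, DDX21 and NAT10 are shown as members with a match there, and NPM1, the member with the most reads, as a gene whose windows held none.
NOP10, chr15:34343137-34343216, minus strand: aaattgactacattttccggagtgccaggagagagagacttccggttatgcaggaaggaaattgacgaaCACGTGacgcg
DDX21, chr10:68956567-68956646, plus strand: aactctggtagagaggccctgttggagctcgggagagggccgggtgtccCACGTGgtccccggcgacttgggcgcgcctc
NAT10, chr11:34105549-34105628, plus strand: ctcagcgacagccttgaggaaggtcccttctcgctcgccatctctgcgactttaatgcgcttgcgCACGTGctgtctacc
NPM1, chr5:171387769-171387848, plus strand: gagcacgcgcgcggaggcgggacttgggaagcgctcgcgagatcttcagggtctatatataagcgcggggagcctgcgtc
The match began 11 bases before the start in NOP10, 31 in DDX21 and 15 in NAT10, and the NOP10 window held another that began 170 bases before it. A match is a string of letters and not evidence of binding. The library pattern described next was alike in both sets: in 3 days 1 the median of the 16 members with the match was 0.34 on the log2 scale against 0.25 for the 22 without it, and in 24 h 1 these medians were -0.30 and -0.27.

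Measured across libraries, the 46 mRNAs differed by individual library more than by treatment group. On the log2 CPM scale, set against the mean of both controls, the median over the members was 0.20 in control 1 and -0.20 in control 2, and -0.30 in 24 h 1 and 0.13 in 24 h 2. It was 0.28 and -0.06 in the 3 days libraries and 0.36 and -0.03 in the 7 days libraries. The same median over all 12536 tested genes stayed between -0.02 and 0.01 in every library. TMM scaling brings most genes near 0 between libraries by design, so that range is not a separate observation. Control 1, 24 h 2 and replicate 1 of both later groups were thus the libraries with high members, and 24 h 1 was the lowest. The pooled SD between replicates of 1 group, 0.30 on this scale, was larger than the members' median log2 fold change in each comparison below that used all 8 libraries.

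**Figure D1:**
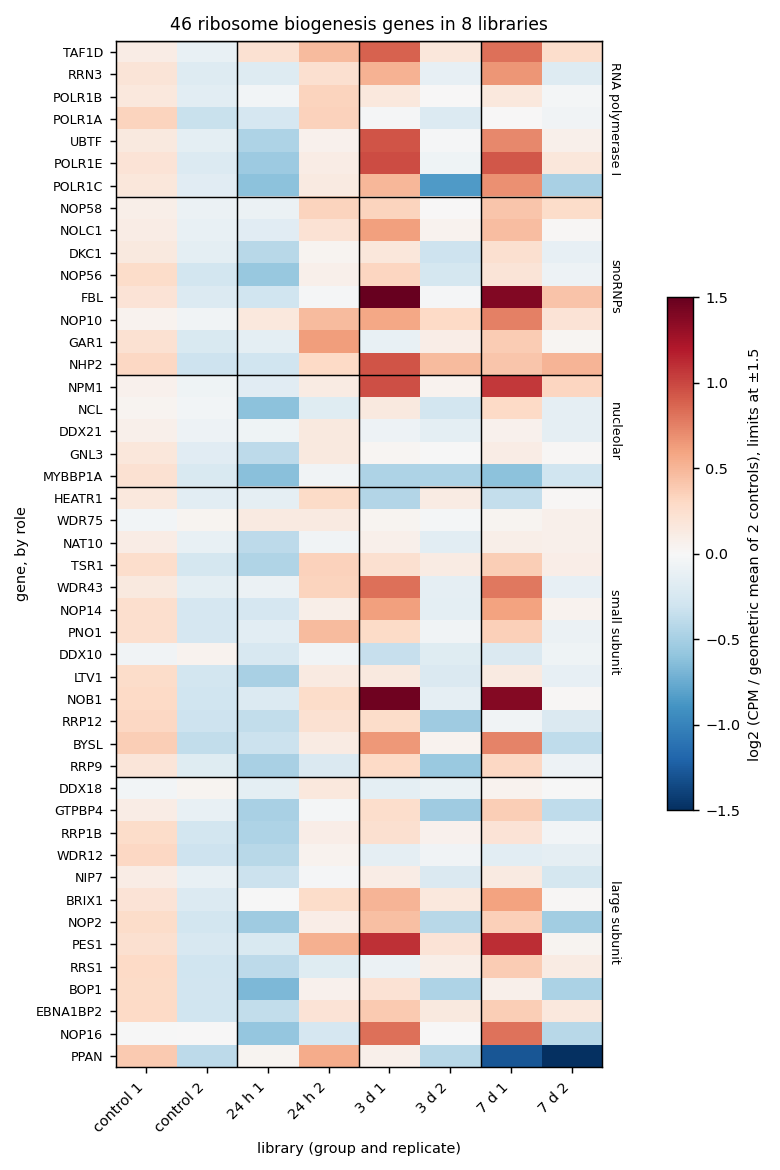
Heat map of the 46 genes (rows, by role) in the 8 libraries (columns); color is log2 of CPM over the geometric mean of both controls, limited to ±1.5. Columns of the same group differ in most rows: control 1 is redder than control 2, 24 h 1 is bluer than 24 h 2, and replicate 1 at 3 and 7 days is redder than replicate 2.

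The levels of the 46 genes covered a wide range. Per kb of transcript (GENCODE v29 length), NPM1 stood highest in the controls at 1138 CPM per kb, followed by NCL at 187, DDX21 at 126, GNL3 at 114 and DDX18 at 105. At the other end were POLR1A at 6.79, NOP16 at 6.09 and PPAN at 0.671 CPM per kb. Together the members took 0.780% and 0.663% of gene counts in the controls, 0.609% and 0.779% at 24 h, 0.900% and 0.668% at 3 days and 0.920% and 0.728% at 7 days (replicate 1, then 2). Without NPM1 the shares were 0.562% and 0.467%, 0.424% and 0.554%, 0.534% and 0.459%, and 0.541% and 0.478%. In these shares the later replicate 1 libraries, above control 1 with NPM1, were below it without. The shares are not scaled with TMM, whose factors were 1.05 in control 1, 0.936 in 3 days 1 and 0.912 in 7 days 1. That order need not hold in CPM, where the members' median was 0.28 in 3 days 1 and 0.36 in 7 days 1, against 0.20 in control 1. For 35 of 46 members (76.1%) the highest library was under 2 times the lowest, against 51.8% of all tested genes. This ratio also depends on the number of reads, and the shares were not matched for level. PPAN, with few reads, had the widest ratio of the members at 5.24.

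**Figure D2:**
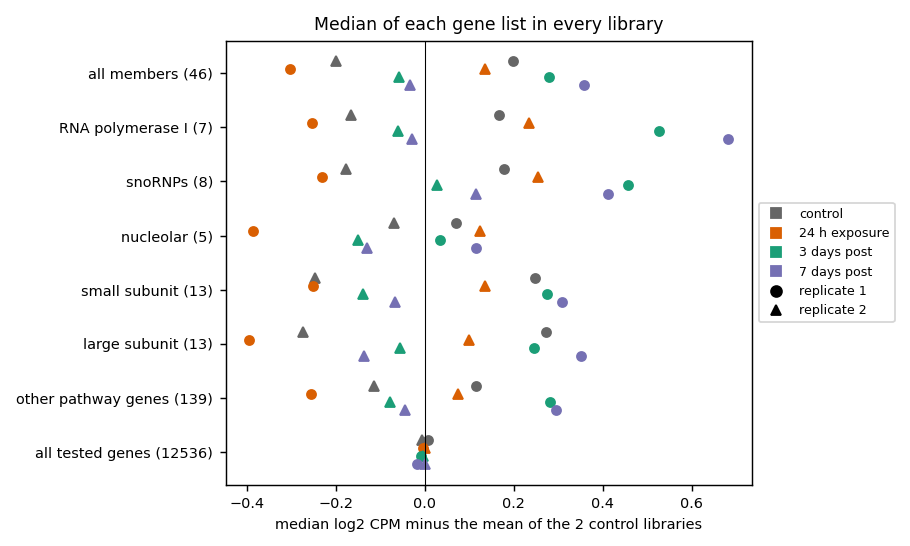
Median log2 CPM minus the mean of both controls (x axis) for each role list, for other genes of the pathway and for all tested genes (rows, number of genes in brackets), with color for the group and shape for the replicate. For the 46 genes the libraries run from -0.30 (24 h 1) to 0.36 (7 days 1). All tested genes lie between -0.02 and 0.01, near 0 by design of the TMM scaling.

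Within each group the replicates differed in the same direction for nearly the whole list. Replicate 1 was above replicate 2 in 42 of 46 members in the controls (median difference 0.40 on the log2 scale), in 1 of 46 at 24 h (-0.44), in 40 of 46 at 3 days (0.42) and in 40 of 46 at 7 days (0.37). Over all tested genes the same counts were 6449, 6180, 6176 and 6294 of 12536. In 38 of 46 members (82.6%) control 1 and 24 h 2 were both above control 2 and 24 h 1, a pattern found in 30.9% of all tested genes. The opposite pattern held in 0 members and in 29.6% of genes. The library 24 h 1 was the lowest of the 8 in 24 members (52.2%, against 17.9% of genes).

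Gene by gene, the replicate differences correlated between the earlier groups, with the sign reversed, and between the later groups. Over the 46 members, the difference in the controls and that at 24 h had a Pearson correlation of -0.60, and those at 3 and 7 days one of 0.82. Over all 12536 genes these values were -0.60 and 0.81, close to those of the members. Between earlier and later groups the members' correlations were weak: 0.13 and 0.08 for control with 3 and 7 days, and -0.14 and -0.13 for 24 h with 3 and 7 days. Genes are not independent replicates, the differences within a pair of groups come from the same 4 libraries, and no p-value is attached. By direct comparison of counts over the members, 3 days 1 and 7 days 1 were the closest pair (chi-square per degree of freedom 4.46), whereas both 3 days libraries gave 82.0 and both 7 days libraries 47.8. Control 1 with 24 h 2 gave 10.7 and control 2 with 24 h 1 gave 12.1, the control pair 12.7 and the 24 h pair 7.64. This measure is scaled to the members' own total in each library, so a shift shared by all members does not enter it. By mean absolute log2 difference over the members, the same pairs in that order gave 0.17, 0.19, 0.38 and 0.46. The chi-square over all tested genes gave 6.08, 6.37, 23.5 and 27.0 for them. No pair came down to the 1 expected from counting error alone, and all 8 libraries were treated as separate samples.

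**Figure D3:**
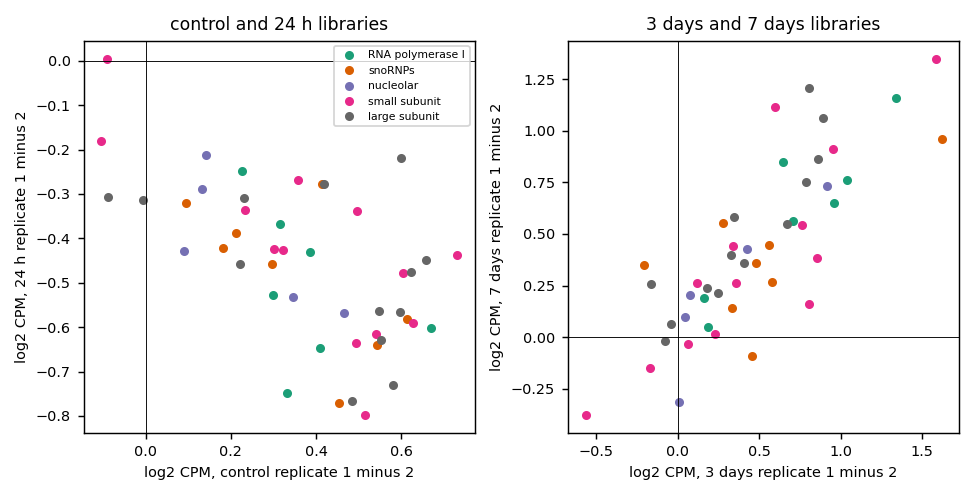
Each point is 1 of the 46 genes, colored by role; axes give log2 CPM of replicate 1 minus replicate 2, for control (x) against 24 h (y) on the left and 3 days (x) against 7 days (y) on the right. On the left 42 genes lie right of 0 and 45 lie below 0 (Pearson r -0.60), and on the right most genes lie above 0 on both axes (r 0.82).

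The tests of the groups used the edgeR quasi-likelihood fit to all 8 libraries, with p-values adjusted by Benjamini-Hochberg over the 12536 genes and a threshold of 0.05. The number of members called was 0 of 46 in each of the 6 comparisons between groups, in the joint test of any difference among the 4 groups, and in the contrast of both later groups with both earlier ones. Over all tested genes the share called was 0% in those 6 comparisons and in the joint test, and 0.00798% (1 gene) in the contrast of later with earlier groups. DESeq2 and limma-voom also called 0 of 46 members in all 8 tests. At an unadjusted edgeR p under 0.05, members numbered 0 at 24 h, 0 at 3 days and 1 at 7 days against control, and 3 in the contrast of later with earlier groups (14.2% of all tested genes there). In the joint test there were 0 (3.56% of genes). The values that follow are therefore descriptions of levels and fitted fold changes, in the order of the members' roles, each with its standard error (SE).

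Among the 7 RNA polymerase I genes, the later replicate 1 libraries carried the highest levels of 5, and the medians of the list there were 0.53 (3 days 1) and 0.68 (7 days 1) on the log2 scale, against -0.06 and -0.03 in replicate 2. TAF1D, a subunit of the promoter factor SL1 and the gene of this role with the most reads, was at 111 and 95.1 CPM in the controls, 121 and 143 at 24 h, 190 and 116 at 3 days and 182 and 123 at 7 days. All 6 exposed libraries lay above both controls, and the later replicate 1 libraries were farthest above. How many of all tested genes had all 6 exposed libraries above both controls was not computed. The fitted log2 fold changes of TAF1D against control were 0.36 ± 0.30 (SE) at 24 h, 0.57 ± 0.30 at 3 days and 0.56 ± 0.30 at 7 days (edgeR adjusted p = 1, 0.843 and 0.851).

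POLR1E, a subunit that helps the polymerase engage the promoter, was at 44.5 and 33.5 CPM in the controls, 26.5 and 41.7 at 24 h, 76.2 and 37.0 at 3 days and 73.6 and 43.3 at 7 days. Its high values were the replicate 1 libraries of the later groups, and replicate 2 of those groups lay inside the range of the 4 earlier libraries. The log2 fold change of POLR1E between later and earlier groups was 0.66 ± 0.30 (edgeR adjusted p = 0.361). UBTF, which binds along the ribosomal DNA, had the same shape, with 133 and 115 CPM in the later replicate 1 libraries and 50.4 to 77.0 CPM elsewhere. POLR1C, a subunit shared with RNA polymerase III, spanned 15.5 (3 days 2) to 44.95 CPM (7 days 1), the widest ratio of this role at 2.90. RRN3, which links the polymerase to the promoter, ran from 104 to 188 CPM; it has 3 named pseudogenes with rows of their own in the tables, so its reads may be split.

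The large catalytic subunits differed from these. POLR1A was at 106 and 66.7 CPM in the controls, 70.7 and 107 at 24 h, 83.1 and 73.3 at 3 days and 84.4 and 81.5 at 7 days. Its spread was widest between the replicates of the earlier groups and all later libraries lay within it. POLR1B kept to 105 to 148 CPM, a ratio of 1.40 between the highest and lowest library. For both, control 1 and 24 h 2 were the highest of the earlier libraries.

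The 8 snoRNP genes held the member with the strongest later excess, FBL, the methyltransferase of box C/D snoRNPs. FBL was at 53.4 and 40.0 CPM in the controls, 37.7 and 45.8 at 24 h, 141 and 45.6 at 3 days and 121 and 62.0 at 7 days. Both later replicate 1 libraries were far above the others, 3 days 2 sat among the earlier libraries, and 7 days 2 was just above them. The log2 fold change of FBL was 0.99 ± 0.52 at 3 days and 0.97 ± 0.52 at 7 days against control (edgeR adjusted p = 0.843 and 0.851) and 1.06 ± 0.37 between later and earlier groups (adjusted p = 0.299). With the later replicate 1 libraries left out it was -0.03 at 3 days, 0.41 at 7 days and 0.27 between later and earlier groups.

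The partners of FBL in the box C/D particle had smaller fitted values. NOP58, the gene of this role with the most reads, was at 178 and 157 CPM in the controls, 157 and 210 at 24 h, 211 and 168 at 3 days and 222 and 202 at 7 days, with both 7 days libraries above both controls. Its log2 fold change at 7 days was 0.34 ± 0.23 (edgeR adjusted p = 0.851). NOP56 ranged from 48.5 CPM in 24 h 1 to 89.5 in 3 days 1, and NOLC1, a chaperone that binds both kinds of snoRNP, from 77.9 in 24 h 1 to 134 in 3 days 1.

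In the H/ACA particle, which converts uridine to pseudouridine, the small proteins NHP2 and NOP10 gave the values with the least overlap. NHP2 was at 9.66 and 6.24 CPM in the controls, 6.33 and 9.58 at 24 h, 14.9 and 10.8 at 3 days and 10.4 and 11.1 at 7 days. All 4 later libraries of NHP2 were above all 4 earlier ones, in replicate 2 as in replicate 1. Its log2 fold change was 0.69 ± 0.35 at 3 days (edgeR adjusted p = 0.843), 0.43 ± 0.35 at 7 days (adjusted p = 0.851) and 0.56 ± 0.25 between later and earlier groups (adjusted p = 0.355).

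NOP10 was at 31.3 and 29.3 CPM in the controls, 33.7 and 42.1 at 24 h, 45.2 and 37.2 at 3 days and 51.2 and 34.9 at 7 days. Every exposed library of NOP10 was above both controls, a pattern whose share among all tested genes was not computed. The log2 fold changes against control were 0.32 ± 0.26 at 24 h, 0.44 ± 0.26 at 3 days and 0.51 ± 0.26 at 7 days (edgeR adjusted p = 1, 0.843 and 0.851). DKC1, the pseudouridine synthase itself, ranged from 74.4 (24 h 1) to 118 CPM (7 days 1), and GAR1 from 15.7 (control 2) to 28.5 CPM (24 h 2). NHP2 and NOP56 have 2 and 3 named pseudogenes in GENCODE v29 and are uncertain for that reason.

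Of the 5 nucleolar proteins, NPM1 and NCL dominate in level. NPM1 encodes nucleophosmin, a chaperone of the outer nucleolus. It was at 2092 and 1909 CPM in the controls, 1782 and 2179 at 24 h, 3911 and 2076 at 3 days and 4155 and 2501 at 7 days. The later replicate 1 libraries were far above the others, 3 days 2 lay inside the earlier range, and 7 days 2 above it. Its log2 fold change was 0.58 ± 0.37 at 3 days, 0.73 ± 0.37 at 7 days (edgeR adjusted p = 0.843 and 0.851) and 0.67 ± 0.26 between later and earlier groups (adjusted p = 0.328). NPM1 has 45 named pseudogenes in GENCODE v29, of which 0 have a row in the tables, so reads that fit several copies make its level uncertain.

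NCL encodes nucleolin, an RNA-binding protein of precursor rRNA. It was at 778 and 731 CPM in the controls, 493 and 664 at 24 h, 832 and 621 at 3 days and 927 and 689 at 7 days. Both 24 h libraries were below both controls, and 24 h 1 was the lowest of all 8. The log2 fold change of NCL at 24 h was -0.38 ± 0.27 (edgeR adjusted p = 1), the smallest unadjusted p of any member in that comparison, and it was -0.06 ± 0.27 at 3 days and 0.10 ± 0.27 at 7 days.

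MYBBP1A, a nucleolar protein that can restrain rRNA synthesis, had its highest library in a control. It was at 59.7 and 43.2 CPM in the controls, 33.0 and 49.0 at 24 h, 37.0 and 36.9 at 3 days and 33.2 and 41.4 at 7 days. All 4 later libraries were below both controls, and 24 h 1 was the lowest of all 8. Its log2 fold change was -0.33 ± 0.28, -0.48 ± 0.28 and -0.46 ± 0.28 at 24 h, 3 days and 7 days (edgeR adjusted p = 1, 0.843 and 0.851). The MYBBP1A value at 24 h was -0.07 without 24 h 1 and -0.64 without 24 h 2, and that at 3 days -0.23 without control 1 and -0.70 without control 2. GNL3, a nucleolar GTPase, ran from 177 (24 h 1) to 261 CPM (control 1), and the helicase DDX21 from 547 to 674 CPM, a ratio of 1.23.

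The 13 small-subunit factors split by library in different ways. HEATR1, a scaffold of the early processome and the gene of this role with the most reads, was at 291 and 232 CPM in the controls, 237 and 318 at 24 h, 192 and 284 at 3 days and 202 and 263 at 7 days. It was the single member in which both later replicate 1 libraries were below the other 6. The log2 fold change of HEATR1 was 0.09 ± 0.28, -0.14 ± 0.28 and -0.17 ± 0.28 at 24 h, 3 days and 7 days against control (edgeR adjusted p = 1, 0.918 and 0.903).

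NOB1, the nuclease that makes the final cut of the small-subunit rRNA, showed the reverse. It was at 39.8 and 26.1 CPM in the controls, 28.0 and 39.1 at 24 h, 88.4 and 29.3 at 3 days and 83.6 and 32.7 at 7 days. Replicate 1 of the later groups was more than 2 times every other library, and replicate 2 of those groups lay among the earlier libraries. Its log2 fold change between later and earlier groups was 0.81 ± 0.41 (edgeR adjusted p = 0.39), and -0.10 with the later replicate 1 libraries left out.

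WDR43 and WDR75, which belong to the same early complex as HEATR1, behaved unlike each other. WDR43 was at 163 and 160 CPM in the later replicate 1 libraries and at 83.0 to 116 CPM elsewhere. WDR75 kept to 153 to 173 CPM, a ratio of 1.14 that was the lowest of all 46 members. Its 24 h libraries, at 173 and 173 CPM, were both above the controls at 153 and 163 CPM.

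Among the remaining factors of the small subunit, NOP14 (49.96 to 91.0 CPM) and BYSL (16.3 to 35.6 CPM) were highest in replicate 1 of the later groups. NOP14 has a named antisense gene in the tables, and its reads cannot be told apart from that gene's without a stated strand setting. NAT10, an RNA acetyltransferase, spanned 118 to 168 CPM, RRP9, a protein of the U3 snoRNP, 10.6 to 19.4 CPM, and RRP12, which takes part in export, 24.6 to 44.4 CPM. LTV1 (37.5 to 63.3 CPM), PNO1 (43.9 to 72.6 CPM) and TSR1 (91.5 to 161 CPM), which ride on the late precursor of the subunit, had a control or 24 h library as the lowest. The helicase DDX10 was at 58.1 and 62.4 CPM in the controls and at 47.3 to 57.9 CPM in all 6 exposed libraries. The share of all tested genes with all 6 exposed libraries below both controls was not computed.

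**Figure D4:**
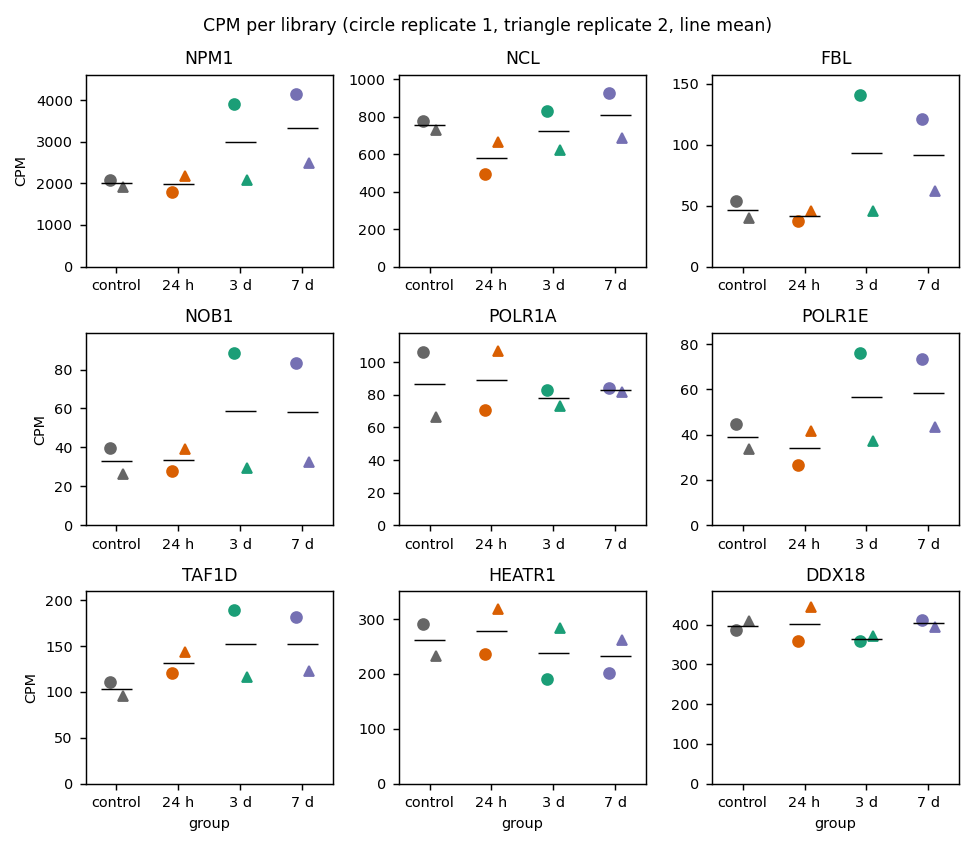
CPM (y axis, from 0) in the 8 libraries for 9 of the genes, by group (x axis), with circles for replicate 1, triangles for replicate 2 and a line at the group mean. NPM1, FBL, NOB1 and POLR1E are highest in replicate 1 at 3 and 7 days, HEATR1 is lowest there, and DDX18 stays between 359 and 444 CPM.

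Of the 13 large-subunit factors, DDX18, a helicase, had the most reads and the least spread. It was at 385 and 410 CPM in the controls, 359 and 444 at 24 h, 360 and 370 at 3 days and 413 and 394 at 7 days. Both 3 days libraries were below both controls, by a log2 fold change of -0.12 ± 0.21 (edgeR adjusted p = 0.899). DDX18 has 5 named pseudogenes in GENCODE v29 with no row in the tables, so its level is uncertain.

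PPAN, an assembly factor of the large subunit, had the fewest reads of the 46 genes. Its counts were 16 and 8 in the controls, 11 and 17 at 24 h, 11 and 9 at 3 days and 4 and 3 at 7 days, which is 1.41, 0.819, 1.11, 1.58, 1.13, 0.803, 0.442 and 0.302 CPM. Both 7 days libraries were below the other 6. The log2 fold change of PPAN was 0.26 ± 0.56 at 24 h, -0.22 ± 0.58 at 3 days and -1.57 ± 0.65 at 7 days (edgeR adjusted p = 0.851), and -1.02 ± 0.43 between later and earlier groups (adjusted p = 0.348). At these counts a few reads decide the value, and a read-through gene named for it, PPAN-P2RY11, is listed at 0 in all 8 libraries.

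The PeBoW complex of BOP1, PES1 and WDR12, needed to cut the large-subunit rRNA, did not move as a unit. PES1 was at 49.1 and 49.5 CPM in the later replicate 1 libraries and at 19.3 to 33.3 CPM elsewhere. BOP1 (17.2 to 33.6 CPM) and WDR12 (73.3 to 122 CPM) were highest in control 1 and lowest in 24 h 1. EBNA1BP2, named for its binding to a nuclear antigen of Epstein-Barr virus, ranged from 14.9 (24 h 1) to 25.2 CPM (3 days 1). NOP2 (34.6 to 67.9 CPM), NOP16 (5.13 to 13.6 CPM), BRIX1 (51.8 to 91.0 CPM), GTPBP4 (108 to 202 CPM) and NIP7 (61.5 to 84.9 CPM) all had their highest library in replicate 1 of a later group. RRS1 covered 20.5 to 35.1 CPM, with its highest library 7 days 1, and RRP1B 90.0 to 150 CPM, with its highest library control 1. NIP7 has 3 named pseudogenes in GENCODE v29, DDX10, PES1 and NCL have 2 each, and BRIX1 and LTV1 have 1 each, with no row in the tables, so these levels too are uncertain.

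At 24 h of exposure, the comparison that asks what chromium does while present, NCL was the member with the smallest p and TAF1D and NOP10 were above control in both libraries. Of the 46 members, 18 had a log2 fold change above 0 and 28 below, with a median of -0.09 (all tested genes: 50% above 0, median 0.00). The members ran from -0.41 to 0.36. Both 24 h libraries were above both controls in 3 members (TAF1D, NOP10 and WDR75; 11.4% of all tested genes) and below in 4 (NCL, RRP9, DDX10 and NOP16; 12.5% of genes). At an unadjusted edgeR p under 0.05 there were 0 members and 0.175% of genes. The count of 18 became 3 without 24 h 2 and 36 without 24 h 1, with medians of -0.33 and 0.13. It became 34 without control 1 (median 0.12) and 6 without control 2 (median -0.28), so the direction turned without control 1 or 24 h 1 and stayed without control 2 or 24 h 2.

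By 3 days post treatment, the nucleolar, small-subunit and large-subunit lists had median log2 fold changes of -0.06, 0.01 and -0.03 and the RNA polymerase I and snoRNP lists of 0.23 and 0.27. Log2 fold changes above 0 were seen in 26 of 46 members (51.2% of all tested genes), with a median of 0.04 (all genes 0.01). Groups did not overlap upward for 3 members (TAF1D, NHP2 and NOP10; 16.7% of genes) and downward for 4 (MYBBP1A, DDX21, DDX10 and DDX18; 17.2% of genes). Unadjusted edgeR p-values under 0.05 were found for 0 members and 5.29% of genes. Without 3 days 1 the count above 0 was 15, and without control 1 it was 40.

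By 7 days post treatment, all 8 snoRNP genes and 6 of 7 RNA polymerase I genes had fitted values above control, with list medians of 0.30 and 0.28. Among all members 34 of 46 were above 0 (50.1% of all tested genes) and the median was 0.12 (all genes 0.00). Groups did not overlap upward for 6 members (TAF1D, FBL, NOP58, NHP2, NOP10 and NPM1; 16.6% of genes) and downward for 3 (MYBBP1A, DDX10 and PPAN; 17.9% of genes). PPAN was the single member with an unadjusted edgeR p under 0.05 (4.94% of genes). Without 7 days 1 the median of the members was -0.05 and the count above 0 was 20, and without control 2 that count was also 20. The 3 comparisons with control share their control libraries.

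Set against 24 h, the later groups gave larger medians than against control. The members' median log2 fold change was 0.18 at 3 days and 0.23 at 7 days, with 34 and 36 of 46 above 0 (51.3% and 50.2% of genes). Groups did not overlap upward for 3 and 9 members (17% and 17.9% of genes) and downward for 2 and 2 (17.6% and 19.1%). Unadjusted edgeR p-values under 0.05 were found for 0 and 1 members (6.09% and 5.96% of genes). Without replicate 1 of the later group the medians were -0.06 and -0.02 and the counts 19 and 21, and without 24 h 1 the count at 3 days was 21. From 3 to 7 days the median was 0.02 with 26 of 46 above 0 (49.6% of genes). That count was 42 without 3 days 1, 12 without 3 days 2, 11 without 7 days 1 and 41 without 7 days 2. The groups did not overlap for 4 members upward and 2 downward (5.24% and 6.41% of genes), and 0 members had an unadjusted p under 0.05 (0.247% of genes).

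With both later groups set against both earlier ones, FBL, NOB1, NPM1 and POLR1E had the highest fitted values of the list and PPAN and MYBBP1A the lowest. The members' median was 0.19, with 33 of 46 above 0 (50.5% of all tested genes, median 0.01). Members with an unadjusted edgeR p under 0.05 were FBL and NPM1 upward (6.94% of genes) and PPAN downward (7.24% of genes), and their adjusted p-values were 0.299, 0.328 and 0.348. These 3 members became 0 when any of control 2, 24 h 1, 3 days 1 or 7 days 1 was left out, and 10 and 9 without 3 days 2 and 7 days 2. All 4 later libraries were above all 4 earlier ones in 1 member, NHP2 (5.93% of genes), and below in 0 members (7.43% of genes).

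The later excess was carried by replicate 1. In 23 of 46 members (50%) both later replicate 1 libraries were above the other 6, against 27.1% of all tested genes, and in 1 member, HEATR1, below (26.4% of genes). Both later replicate 2 libraries lay inside the range of the 4 earlier libraries in 36 members (78.3%, against 39.5% of genes). Leaving out the later replicate 1 libraries left 1 library in each later group, while control 1 and 24 h 2, with high members, stayed in. Then 17 of 46 members at 3 days, 20 at 7 days and 18 in the contrast of later with earlier groups were above 0. The medians were -0.07, -0.05 and -0.04. The later replicate 1 libraries are those with fewer reads under no feature and more ambiguous reads, and the part of those read shares in the result was not tested.

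**Figure D5:**
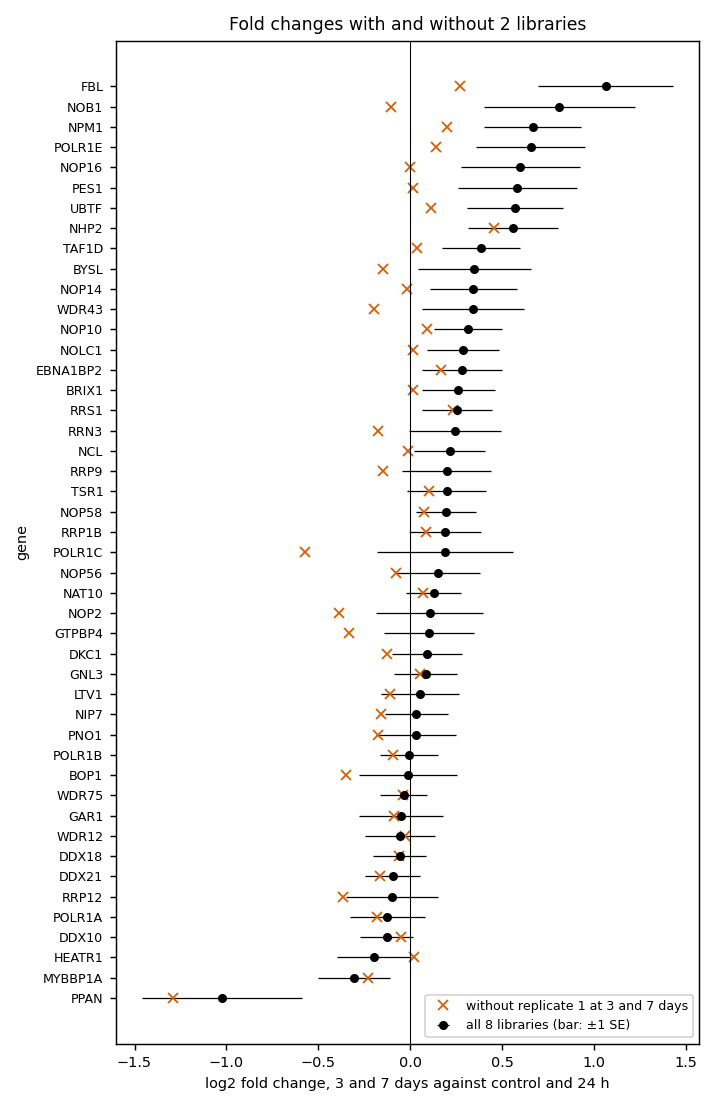
Log2 fold change between later (3 and 7 days) and earlier (control and 24 h) groups (x axis) for each of the 46 genes (y axis, sorted), with all 8 libraries (black, bar 1 SE each way) and without replicate 1 at 3 and 7 days (cross). With all libraries 33 genes lie above 0 and without those libraries 18; FBL goes from 1.06 to 0.27 and NOB1 from 0.81 to -0.10.

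GC content moved with the replicate differences of the members in each group, and transcript length with those of the later groups. Over the 46 members, replicate 1 minus replicate 2 had a Pearson correlation with log2 length of -0.32 at 3 days and -0.38 at 7 days (all genes with a length: -0.20 and -0.15), and with GC content of 0.37 and 0.21 (all: 0.22 and 0.10). In the controls the correlation with GC was 0.55 and at 24 h -0.35 (all: 0.17 and -0.04). With log2 length it was -0.03 in the controls and -0.05 at 24 h (all: -0.12 and 0.08). When a trend in length and GC was removed from each library, the member medians were 0.18 and -0.18 in the controls, -0.26 and 0.15 at 24 h, 0.30 and -0.06 at 3 days and 0.30 and 0.00 at 7 days. The median over all genes with a length was then 0.06 in 3 days 1 and 0.07 in 7 days 1. The lists differed: the snoRNP median in 3 days 1 went from 0.46 to 0.25 and in 7 days 1 from 0.41 to 0.27. The small-subunit and large-subunit medians in 7 days 1 went from 0.31 to 0.17 and from 0.35 to 0.22. Others rose, the RNA polymerase I median in 3 days 1 from 0.53 to 0.68, and the nucleolar median from 0.03 to 0.16 (3 days 1) and from 0.12 to 0.22 (7 days 1). In differences of mean log2 CPM between later and earlier groups, 34 of 46 members were above 0 before and 40 after. The members' median there was 0.17 before and 0.15 after (all genes with a length: 0.00 and 0.05).

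Other genes of the pathway, 141 on a list of further RNA polymerase I, snoRNP, small-subunit, large-subunit and exosome genes, had medians near those of the members. Of the 139 tested, 45 had a log2 fold change above 0 at 24 h, 95 at 3 days, 98 at 7 days and 106 in the contrast of later with earlier groups, with medians of -0.08, 0.11, 0.12 and 0.17. The 14 tested exosome genes, which trim and degrade RNA, had medians of -0.06, 0.00, 0.03 and 0.07. Replicate 1 was above replicate 2 in 7 of the 14 in the controls, 3 at 24 h, 8 at 3 days and 7 at 7 days. None of the 139 was called by edgeR in any comparison, and 0, 1, 1 and 8 had an unadjusted p under 0.05 (0.175%, 5.29%, 4.94% and 14.2% of all tested genes). The smallest p-values in the last contrast belonged to the U3 snoRNP factor IMP4 (0.71 ± 0.24, adjusted p = 0.299 by edgeR), the processome nuclease homolog FCF1 (0.49 ± 0.19, adjusted p = 0.323), the polymerase subunit POLR1D (0.63 ± 0.25, adjusted p = 0.326) and the large-subunit factor ZNF622 (0.88 ± 0.35, adjusted p = 0.329). POLR1D was at 79.7 and 79.9 CPM in the controls, 82.6 and 79.2 at 24 h, 162 and 86.8 at 3 days and 157 and 90.6 at 7 days, with all later libraries above all earlier ones and replicate 1 far above replicate 2. FCF1 likewise had 36.7 to 57.2 CPM in the later libraries and 30.3 to 35.3 CPM in the earlier ones. Of the 139 genes, all later libraries were above all earlier ones in 4 (5.93% of all tested genes) and below in 2 (7.43% of genes).

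MYC, the transcription factor known to drive this pathway, ran against the members between replicates. It was at 123 and 160 CPM in the controls, 184 and 115 at 24 h, 142 and 167 at 3 days and 135 and 164 at 7 days. The libraries with lower MYC in each group, control 1, 24 h 2, 3 days 1 and 7 days 1, were those with the higher members. Among all tested genes, 29.6% were likewise lower in control 1 and 24 h 2 than in control 2 and 24 h 1. In 38.8% both later replicate 1 libraries were below both later replicate 2 libraries. The share of genes with both patterns was not computed, and a role of MYC was not tested. Of the 9 tested genes of the MYC and MAX network 0 were called by edgeR in any comparison. MXI1, a MAX partner that opposes MYC, had the smallest p of these in the contrast of later with earlier groups (log2 fold change 0.85 ± 0.37) and was at 6.59 and 13.0 CPM in the controls, 18.3 and 5.77 at 24 h, 18.9 and 20.8 at 3 days and 19.8 and 18.5 at 7 days. Like MYC, MXI1 was low in control 1 and 24 h 2, but in the later groups it was high in both replicates.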

How the data were processed

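Per the submitters' processing notes, the authors used Bowtie2, Trim Galore, SAMtools, R 3.2.3 and DESeq2 1.8.1 with hg19 (GRCh37). How reads were counted, with which strand setting and annotation, is not stated in the sources used here. The deposited files hold raw read counts for each gene symbol, 1 table per library. The 5 summary entries of each table, which name no gene and took 42.6% to 57.5% of its reads, were left out.

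From the counts, genes were kept with filterByExpr of edgeR 4.0.16 (minimum count 10, minimum total 15) and scaled with TMM. The quasi-likelihood model held all 8 libraries, 1 coefficient for each of the 4 groups and no covariate (common biological coefficient of variation 0.276, 4 residual degrees of freedom). Log2 CPM used a prior count of 2. Adjusted p-values are Benjamini-Hochberg over 12536 genes. The procedure was also run on simulated counts, drawn independently for each gene. They held no shift shared by many genes of a library, as seen here, so that run cannot speak to such shifts.

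The members, role lists and tests were chosen with earlier results of these data known. Values in every library are given for the member with the most reads in each role, the 4 members with the smallest p in each comparison with control and in the contrast of later with earlier groups, and the member with the smallest p in each role there; POLR1A, WDR75 and other members with values were named outside that rule after their values were seen. Alternatives used RLE and upper-quartile scaling, DESeq2 1.42.0, limma-voom (limma 3.58.1, R 4.3.3), other filters, robust empirical Bayes, a replicate block, a fit of 2 groups, and left-out libraries. Lengths and GC content came from GENCODE v29 (GRCh38), matched by symbol for 12133 genes (96.8%) and all 46 members. No protein sequence and no genome of the files' build was used here.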

Additional observations from a re-analysis of the deposited data

How the results depend on the processing

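Limits first: 2 libraries a group and reads of 0.302 to 4155 CPM per member limit what can be called, and single libraries decide the direction of the list. Genes called, 0 in the main fit of each comparison between groups, became with DESeq2 and with no filter on low counts 9 and 11 at 3 days and 15 and 16 at 7 days against control, 19 and 21 at 3 days and 22 and 25 at 7 days against 24 h, and 65 and 67 in the joint test. For later against earlier groups, with 1 in the main fit, they were 277 and 489, 0 with the later replicate 1 libraries left out and 0 to 0 with each library left out in turn. Without the filter 1 member, FBL, was called there (log2 fold change 1.06, adjusted p = 0.0182), against adjusted p = 0.299 with it. The cause of these differences was not tested. FBL at 3 days against control was -0.027 with both later replicate 1 libraries left out and ran from -0.035 without 3 days 1 to 1.59 without 3 days 2, and NOB1 between later and earlier groups was -0.10 with both later replicate 1 libraries left out. Members called stayed at 0 under every other alternative run except the crossed block given next.

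The members' median log2 fold change, with each library left out in turn, ran from -0.33 to 0.13 at 24 h, -0.11 to 0.29 at 3 days and -0.05 to 0.35 at 7 days against control, -0.06 to 0.42 and -0.02 to 0.49 against 24 h, -0.20 to 0.23 from 3 to 7 days and 0.04 to 0.31 for later against earlier groups. Genes at an unadjusted p under 0.05 at 3 days, 663 in the main fit, numbered 195 without control 2 and 1957 without 3 days 2.

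The replicate numbers were not treated as pairs, because same-numbered replicates did not deviate together in every pair of groups: over all genes their differences correlated at 0.81 between 3 and 7 days and at 0.34 and 0.32 between control and those groups, but at -0.60 between control and 24 h and at -0.32 and -0.31 between 24 h and the later groups. With the replicate number as a block, 0 members were called in every comparison, and the members' median was -0.04 at 24 h, 0.03 at 3 days, 0.12 at 7 days and 0.15 for later against earlier groups. A block that pairs control 1 with 24 h 2 and control 2 with 24 h 1, chosen after seeing the data and with 1 residual degree of freedom in that comparison, called 216 genes at 24 h, 2 of them members (NCL and TAF1D).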
